A study of Homo sapiens with 11 samples.

Results

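The expression of 8 chemokine genes and a pair of feedback inhibitors of NF-kB was followed in HCT116 cells after decitabine and after an siRNA against Staufen1. The 10 genes, CXCL1, CXCL2, CXCL3, CXCL8, CXCL10, CXCL11, CCL5, CCL20, NFKBIA and TNFAIP3, were chosen by symbol, and each symbol matched a single row among the 58699 genes of the authors' table, whose values are in FPKM, fragment counts scaled by transcript length and library size. The 10 genes and the lists of related genes used below were chosen with earlier results of these data known. Shares and medians over all genes are set beside them as description and do not test the set. HCT116 is an established human colorectal cancer cell line. Total RNA came from 4 groups of 2 libraries: cells with luciferase siRNA (siLuc, the control) given the solvent DMSO, siLuc cells given decitabine (DAC), cells with Staufen1 siRNA (siStau1) given DMSO, and siStau1 cells given DAC. DAC, a nucleoside that traps DNA methyltransferases and so lowers DNA methylation, was used at 500 nM for 5 days, and the whole series comes from a single cell line. The table holds FPKM values for groups and none for single libraries. Neither a replicate spread nor the sequencing depth is therefore known. The labels do not say whether the 2 libraries of a group came from separate cultures. The authors' p-values rest on these libraries and on the variance model of their tool, and the spread between the libraries may be technical.

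Chemokines are small secreted proteins that bind G protein-coupled receptors on leukocytes and direct their migration. CXCL1, CXCL2, CXCL3 and CXCL8 carry a glutamate-leucine-arginine motif before their first cysteines and attract neutrophils through CXCR2, and CXCL8 also acts through CXCR1. CXCL10 and CXCL11 are induced by interferons and attract activated T cells through CXCR3. CCL5 attracts T cells and monocytes, and CCL20 attracts cells bearing CCR6, such as dendritic cells and Th17 cells. Most of these genes have binding sites for NF-kB, a family of transcription factors that inhibitors of the IkB family hold in the cytoplasm. NFKBIA encodes IkB-alpha and TNFAIP3 encodes A20, a ubiquitin-editing enzyme. Both are NF-kB targets that shut the pathway down again, and colon epithelium secretes CXCL8 and CCL20 when NF-kB is activated.

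The targeted gene was examined first, as a check of the labels. Under DMSO, STAU1 had 35.5 FPKM with siLuc and 30.0 with siStau1, and under DAC it had 33.7 and 27.1. The level was lower in both groups labelled siStau1, but the authors' deposited table called neither difference, with q-values of 0.767 in DMSO and 0.685 in DAC. Of 7 markers of colorectal epithelium, EPCAM, KRT8, KRT18, KRT19 and CDH1 were at 14.3 FPKM or more in each group, while the differentiation markers VIL1 and LGALS4 reached at most 0.198 and 1.5. The epithelial sum was higher with DAC, at 8192 against 2593 FPKM in siLuc and 5930 against 2146 in siStau1. EPCAM went the other way, from 259 to 117 FPKM in siLuc, a fall called in the authors' deposited table. The 6 leukocyte markers summed to 1.77 FPKM without and 18.0 with DAC in siLuc cells, and to 0.809 and 8.25 FPKM in siStau1 cells. Most of that sum was CD68, at 17.1 FPKM in siLuc DAC, while PTPRC, which encodes the pan-leukocyte protein CD45, was listed at 0 without DAC and reached 0.174 FPKM with DAC in siLuc and 0.820 in siStau1, where it was called in the authors' deposited table. The 4 fibroblast markers summed to between 1.20 and 10.3 FPKM and the 3 endothelial markers to between 0.0666 and 1.57, again higher in the DAC groups. The sums of these lists were higher with DAC, as were most of the 10 genes, although single markers such as EPCAM and LYZ were lower in siLuc, and their part in the results was not tested.

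Promoter sequences were searched for binding motifs. As said above, most of the 10 were already known to have NF-kB binding sites. Matches to the NF-kB consensus are therefore partly given by the choice of genes. RefSeq's table for GRCh38.p14 held promoters for 9 of them, all but CCL5. The NF-kB consensus was searched by name on both strands of the 250 bases before each RefSeq start. At least 1 match was present in 8 of the 9 promoters, against 5.21% of 35116 promoters of the same length. The close paralogs CXCL1, CXCL2 and CXCL3 count as 3 of these 8. In 7 of the 9 a match lay within 100 bases of the start, between 81 and 46 bases upstream. The core of the interferon response element, GAAA followed by any 2 bases and GAAA again, was also searched on both strands. It was found in CXCL10 alone among the 9, against 3.02% of all promoters, and it does not overlap the NF-kB matches there. The CXCL8 promoter held no exact match to the consensus in this window, which does not show that it lacks an NF-kB site. Its sequence holds ggaatttcct, which differs only in its last base from GGAATTTCCC, a match in CXCL1. The sequences are shown for the 3 paralogs CXCL1, CXCL2 and CXCL3, whose responses to DAC differed in size, and for the genes whose values are described most fully. Each is written 5′ to 3′ on the gene's own strand and ends at the base before the RefSeq start, with capitals marking matches to the NF-kB consensus and, in CXCL10, also the match to the interferon response core. In CXCL1, CXCL2 and CXCL3 the capitals hold a match on each strand, and these matches overlap.
CXCL1, chr4:73869243-73869392, plus strand: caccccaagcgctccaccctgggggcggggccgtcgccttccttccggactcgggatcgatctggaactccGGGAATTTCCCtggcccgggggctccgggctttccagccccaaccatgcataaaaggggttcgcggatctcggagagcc
CXCL2, chr4:74099196-74099345, minus strand: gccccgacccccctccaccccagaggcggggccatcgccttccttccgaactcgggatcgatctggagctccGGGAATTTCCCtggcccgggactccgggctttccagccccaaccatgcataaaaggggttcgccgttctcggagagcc
CXCL3, chr4:74038690-74038839, minus strand: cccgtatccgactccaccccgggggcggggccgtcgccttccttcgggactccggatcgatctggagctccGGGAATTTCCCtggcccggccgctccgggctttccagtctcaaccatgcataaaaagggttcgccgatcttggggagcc
CXCL8, chr4:73740419-73740568, plus strand: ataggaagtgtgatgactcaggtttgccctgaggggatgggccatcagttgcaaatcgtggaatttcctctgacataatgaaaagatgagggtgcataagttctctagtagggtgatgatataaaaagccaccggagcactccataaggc
CXCL10, chr4:76023498-76023727, minus strand: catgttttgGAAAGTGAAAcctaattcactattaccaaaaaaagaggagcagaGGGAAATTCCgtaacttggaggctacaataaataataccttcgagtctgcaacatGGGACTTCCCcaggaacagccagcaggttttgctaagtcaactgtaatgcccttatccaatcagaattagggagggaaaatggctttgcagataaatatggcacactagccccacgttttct
NFKBIA, chr14:35404750-35404899, minus strand: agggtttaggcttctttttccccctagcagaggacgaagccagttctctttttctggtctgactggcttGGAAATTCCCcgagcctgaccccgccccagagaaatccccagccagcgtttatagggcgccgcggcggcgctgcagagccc
TNFAIP3, chr6:137867109-137867258, plus strand: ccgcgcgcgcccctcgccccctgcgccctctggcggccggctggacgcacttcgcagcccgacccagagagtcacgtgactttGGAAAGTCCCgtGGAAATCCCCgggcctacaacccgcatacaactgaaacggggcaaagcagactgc

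The 3 CXCL1, CXCL2 and CXCL3 promoters were alike over these 150 bases, with 88.7% identity between CXCL1 and CXCL2, 86.0% between CXCL1 and CXCL3 and 86.1% between CXCL2 and CXCL3. The same 11 capital letters stood in each. RefSeq and GENCODE place the start of some of these genes differently: the RefSeq start lay 98 bases inside the GENCODE gene for CXCL2, 118 for CXCL3, 63 for CXCL8 and 71 for TNFAIP3. It lay 5345 bases inside for CXCL11 and 8103 for CCL20, which GENCODE extends upstream, so the matches counted above for these 2 genes belong to the RefSeq start only. In the transcripts, 12.5% of the 50-base windows of CXCL2 were found unchanged in another gene, CXCL3 or CXCL1, against 6.01% for CXCL3 and 4.81% for CXCL1. How reads from such stretches were divided is not given in the sources used here, so the values of these paralogs carry that uncertainty. CXCL8, CXCL10, CXCL11, CCL20, NFKBIA and TNFAIP3 shared no 50-base window with another gene. In CCL5 13.9% of windows were shared, the largest share of the 10, with a long series of unrelated genes. Its values carry the same uncertainty.

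By GENCODE release 29 on GRCh38, 6 of the genes are on chromosome 4. CXCL8 (ENSG00000169429.10) spans 73740506 to 73743716, CXCL1 (ENSG00000163739.4) 73869393 to 73871242, CXCL3 (ENSG00000163734.4) 74036589 to 74038807 and CXCL2 (ENSG00000081041.8) 74097035 to 74099293. CXCL10 (ENSG00000169245.5, 76021117 to 76023497) and CXCL11 (ENSG00000169248.12, 76033682 to 76041415) lie 10.2 kb apart on the same chromosome. CCL20 (ENSG00000115009.12) is on chromosome 2 from 227805739 to 227817564, and CCL5 (ENSG00000271503.5) on chromosome 17 from 35871491 to 35880793. NFKBIA (ENSG00000100906.10) is on chromosome 14 from 35401511 to 35404749 and TNFAIP3 (ENSG00000118503.14) on chromosome 6 from 137867188 to 137883312. CXCL10 and CXCL11 lie within the span of ART3 on the opposite strand, and CXCL11 also holds a processed pseudogene, AC112719.1. CCL5 and TNFAIP3 each overlap an antisense gene, AC015849.1 and AL357060.1. The library kits are stranded by name, but whether counting used strand is not given in the sources used here, so reads of these overlapping genes may be mixed.

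FPKM is scaled by transcript length, so levels can be set side by side between genes, although no spread is known for any of them. Ratios between groups followed GC content, as described below, so the order of the genes and its changes between groups carry that uncertainty. NFKBIA was the most abundant of the 10 in each group, from 36.1 FPKM in siStau1 DMSO to 136 in siLuc DAC. In siLuc DMSO the order below it was CXCL8 at 6.06 FPKM, CCL5 at 4.65, CXCL1 at 3.54, TNFAIP3 at 2.07, CXCL10 at 1.53, CXCL3 at 1.31, CXCL2 at 1.12, CCL20 at 0.721 and CXCL11 at 0.364. The control cells thus had several neutrophil-attracting chemokines at a few FPKM and CXCL11 below 1. In siStau1 DAC the second place was taken by CXCL8 at 19.9 FPKM and the third by CXCL1 at 15.8, while in siLuc DAC CCL5 stood second at 18.4. The highest of the 4 groups was siLuc DAC for 7 of the 10 genes, siStau1 DAC for CXCL8 and CXCL11, and siLuc DMSO for CXCL10. Among 12610 protein-coding genes with at least 1 FPKM in some group, 45.8% were highest in siLuc DAC and 8.09% in siStau1 DAC. The lowest group was siStau1 DMSO for 8 of the 10 genes and siLuc DMSO for CXCL2 and CXCL3, against 36.6% and 20.1% of those protein-coding genes.

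**Figure D1:**
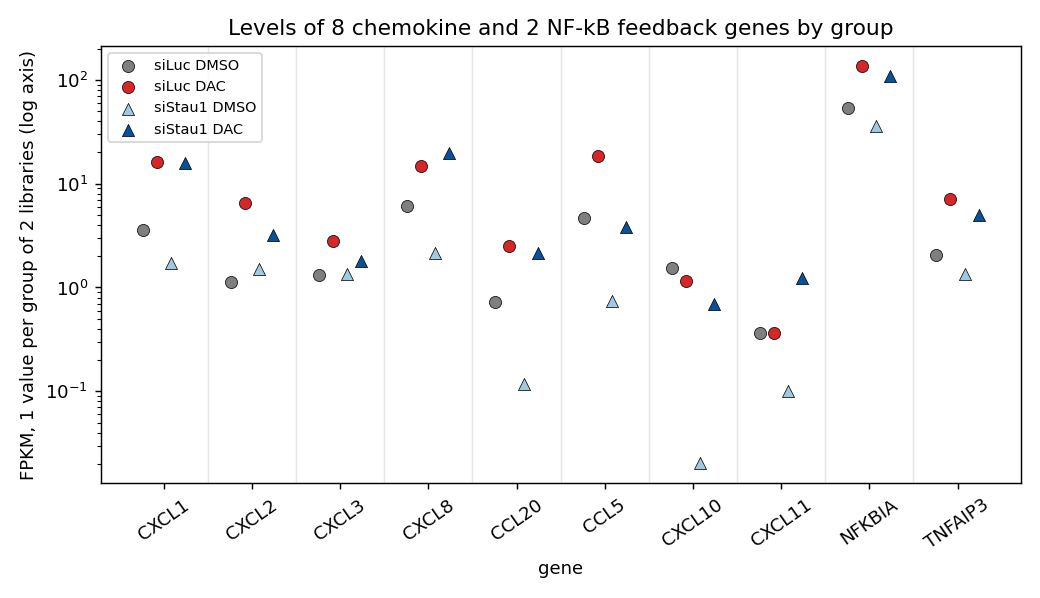
FPKM (log axis) of the 10 genes in the 4 groups, 1 point per group of 2 libraries, without error bars since libraries have no values of their own. NFKBIA sits above 36 FPKM in each group, and siStau1 DMSO is the lowest point for 8 of the 10 genes.

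The response of control cells to DAC was addressed first. In siLuc cells DAC raised 5 of the 10 genes in the authors' deposited table, where a gene is called at a q-value (q) under 0.05: the chemokines CXCL1, CXCL2 and CCL5 and both feedback genes. None of the 10 was called lower. Of the 17504 genes tested in this comparison, 13.5% were called, 8.71% higher and 4.78% lower, and 9 of the 10 genes were tested, CXCL11 being too low. Fold changes below are log2 ratios of FPKM + 0.1, a scale on which changes of low genes come out too small. Over the 10 genes the log2 ratio had a median of 1.51, beside 0.23 over all genes tested. In RNA from a whole culture, a change in the number of cells that express a gene and a change in its RNA per cell cannot be told apart.

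Among the neutrophil-attracting chemokines CXCL1 rose from 3.54 to 16.1 FPKM in siLuc cells, a log2 ratio of 2.15, with q = 0.00825 in the authors' deposited table. CXCL2 rose from 1.12 to 6.49 FPKM, a log2 ratio of 2.43 with q = 0.0272 in the authors' deposited table. Their close paralog CXCL3 went from 1.31 to 2.81 FPKM and was not called, with q = 0.451 in the authors' deposited table. CXCL8, which encodes interleukin-8, went from 6.06 to 14.9 FPKM and was just outside the limit, with q = 0.0663 in the authors' deposited table. The 4 genes were thus 2.14-fold to 5.79-fold higher with DAC, and the pair with the largest ratios passed the test.

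Of the remaining chemokines CCL5 rose from 4.65 to 18.4 FPKM in siLuc cells, a log2 ratio of 1.96, with q = 0.00293 in the authors' deposited table. CCL20 went from 0.721 to 2.50 FPKM, with q = 0.306 in the authors' deposited table. The interferon-linked CXCL10 went from 1.53 to 1.16 FPKM, with q = 0.879 in the authors' deposited table, and CXCL11 stood at 0.364 and 0.366 FPKM. The feedback genes moved as the called chemokines did. NFKBIA rose from 53.2 to 136 FPKM, a log2 ratio of 1.36 with q = 0.00162 in the authors' deposited table, the smallest q-value that table holds. TNFAIP3 rose from 2.07 to 7.04 FPKM, a log2 ratio of 1.72 with q = 0.0413 in the authors' deposited table.

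In siStau1 cells DAC raised 4 of the 10 genes in the authors' deposited table, CXCL1, CXCL8, NFKBIA and TNFAIP3, and lowered none. Of the 16979 genes tested there, 7.46% were called, 4.56% higher and 2.89% lower, and all 10 genes were tested. Each of the 10 had a log2 ratio above 0, with a median of 2.48, beside 0.11 over all genes tested, and the median was 1.42 with a pseudocount of 1. CXCL8 rose from 2.14 to 19.9 FPKM, a log2 ratio of 3.16, with q = 0.00162 in the authors' deposited table. CXCL1 rose from 1.72 to 15.8 FPKM, a log2 ratio of 3.13, with q = 0.00293 in the authors' deposited table. These neutrophil-attracting chemokines thus ended near or above their level in siLuc DAC from a lower start.

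The other paralogs were not called in siStau1 cells. CXCL2 went from 1.49 to 3.18 FPKM and CXCL3 from 1.36 to 1.81 FPKM, with q-values of 0.444 and 0.856 in the authors' deposited table. CCL5 went from 0.741 to 3.84 FPKM, with q = 0.122 in the authors' deposited table. A group of 3 genes started near 0. CCL20 went from 0.119 to 2.14 FPKM, CXCL10 from 0.0202 to 0.695 and CXCL11 from 0.101 to 1.23, with q-values of 0.597, 0.471 and 0.610 in the authors' deposited table. Their log2 ratios of 3.36, 2.73 and 2.72 were not called and rest on the pseudocount, being 1.49, 0.73 and 1.02 with a pseudocount of 1. NFKBIA rose from 36.1 to 109 FPKM, a log2 ratio of 1.59 with q = 0.00162 in the authors' deposited table. TNFAIP3 rose from 1.35 to 5.03 FPKM, a log2 ratio of 1.82, with q = 0.0464 in the authors' deposited table, close to the limit.

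**Figure D2:**
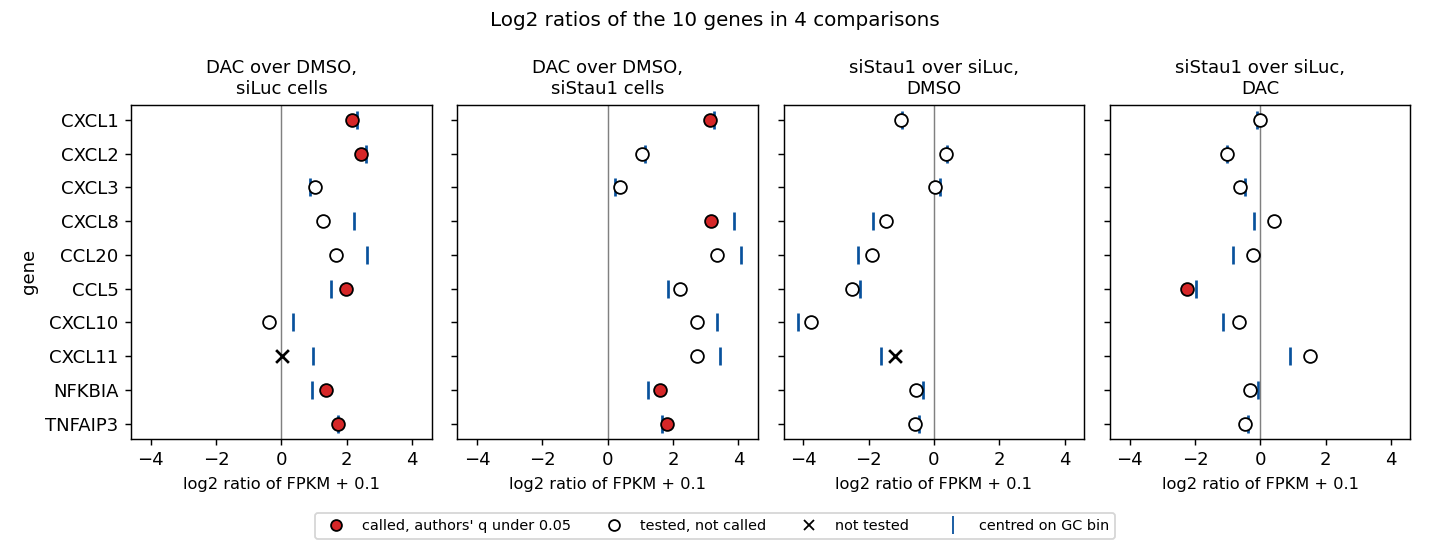
Log2 ratios of FPKM + 0.1 for the 10 genes in 4 comparisons, with red circles for genes called at a q-value under 0.05 in the authors' deposited table, open circles for genes tested and not called, and crosses for genes not tested. Blue ticks give the ratio centred on protein-coding genes of like GC content. Red circles are on the higher side with DAC in both siRNA arms, and CCL5 is the single call for the knockdown.

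The size of the DAC response in the 2 siRNA arms was set side by side, and the difference could not be tested because there is no value per library. The log2 ratio was larger in siStau1 cells for 8 of the 10 genes, by a median of 0.62 over the 10. The count was 7 of 10 after GC centring, where TNFAIP3 turned to −0.069, and 6 of 10 with a pseudocount of 1, where CCL5 turned to −0.31 and TNFAIP3 to −0.032. Over the 15956 genes tested in both arms the median was −0.016. The difference was 3.10 for CXCL10, 2.72 for CXCL11, 1.87 for CXCL8, 1.69 for CCL20 and 0.98 for CXCL1. These sizes depend on the pseudocount, and with 1 in place of 0.1 they were 0.96, 1.02, 1.56, 0.46 and 0.72. It was 0.26 for CCL5, 0.24 for NFKBIA and 0.10 for TNFAIP3. CXCL2 and CXCL3 went the other way, at −1.39 and −0.65. The 8 genes with a difference above 0 were those whose lowest group was siStau1 DMSO, whose value enters both this difference and the knockdown comparison in DMSO. CXCL8 passed the test in siStau1 cells and not in siLuc cells, and CXCL2 and CCL5 did the reverse, which does not show that the arms differ for them.

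The effect of the knockdown itself was addressed without and with DAC. Without DAC the authors' deposited table, made with Cuffdiff, called 0 of the 10 genes between siStau1 and siLuc, with 9 tested. Of the 15893 genes tested, 0.799% were called, 0.333% higher and 0.466% lower. At an unadjusted p under 0.05 there were 2 of the 10 genes, CXCL8 and CCL5, and 4.30% of all genes tested. Levels were lower in siStau1 DMSO for 8 of the 10 genes, with a median log2 ratio of −1.10, or −0.58 with a pseudocount of 1, beside −0.02 over all genes tested. CCL5 had 4.65 FPKM in siLuc and 0.741 in siStau1, with q = 0.0855 in the authors' deposited table. CXCL8 had 6.06 and 2.14 FPKM, with q = 0.103 in the authors' deposited table. CXCL10 had 1.53 and 0.0202 FPKM, a log2 ratio of −3.76, but q was 0.465 in the authors' deposited table. CCL20 had 0.721 and 0.119 FPKM, CXCL1 3.54 and 1.72, NFKBIA 53.2 and 36.1 and TNFAIP3 2.07 and 1.35. CXCL2 and CXCL3 were slightly higher in siStau1, at 1.49 against 1.12 and 1.36 against 1.31 FPKM.

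Under DAC the knockdown was called for CCL5 alone among the 10 genes. CCL5 fell from 18.4 FPKM in siLuc DAC to 3.84 in siStau1 DAC, a log2 ratio of −2.23, with q = 0.00293 in the authors' deposited table. Of the 17263 genes tested, 0.904% were called, 0.434% higher and 0.469% lower. The call rests on the adjustment over the comparisons together: adjusted within this comparison, 0 of the 10 genes passed. CCL5 was also the only gene of the 10 with an unadjusted p under 0.05, which 6.95% of all genes tested had. The ratio in DMSO was nearly the same, at −2.50, and the difference between the 2 was not tested. The limits given above for CCL5, its shared windows and its antisense overlap, apply to these values.

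For the 9 other genes the level under DAC was not called different between the siRNAs. CXCL1 had 16.1 FPKM in siLuc and 15.8 in siStau1, NFKBIA 136 and 109, TNFAIP3 7.04 and 5.03 and CCL20 2.50 and 2.14. CXCL2 had 6.49 and 3.18 FPKM, and CXCL3 had 2.81 and 1.81. CXCL8 and CXCL11 stood higher in siStau1, at 19.9 against 14.9 and 1.23 against 0.366 FPKM, and CXCL10 lower, at 0.695 against 1.16. The median log2 ratio of the 10 was −0.40, beside −0.14 over all genes tested. CXCL1 was at −0.02 as deposited, 0.093 when centred on the median gene and 0.12 when rescaled to the sum over protein-coding genes, so it has no stable direction. No interval can be given for these differences, and a q-value above the limit does not show that the levels were equal.

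Against untreated control cells, siStau1 cells with DAC were higher in 3 of the 10 genes in the authors' deposited table and lower in none, where 4.98% of the 16909 genes tested were called, 4.02% higher and 0.964% lower. CXCL8 was 3.28-fold higher, with q = 0.00293 in the authors' deposited table. CXCL1 was 4.47-fold and NFKBIA 2.05-fold higher, with q-values of 0.0109 and 0.0201 in the authors' deposited table. CCL5 stood at 3.84 FPKM against 4.65 and CXCL10 at 0.695 against 1.53, both not called. This comparison differs in siRNA and drug, and it shares its groups with the comparisons above.

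Ratios in these data followed the GC content of transcripts, which matters here because some of the chemokine mRNAs are among the most AT-rich. Over 10953 protein-coding genes at or above 1 FPKM on both sides of the comparison, Spearman's rho between GC content and the DAC log2 ratio in siLuc was 0.659, and over 11593 such genes it was −0.715 for the knockdown under DAC. These are descriptions across genes of the same libraries, and genes are not independent replicates. CXCL8 had a transcript GC content of 33.4%, CXCL11 34.5%, CCL20 35.5% and CXCL10 37.5%, at percentiles 0.365, 0.983, 2.24 and 6.30 among expressed protein-coding genes. The other 6 lay between 45.6% for CXCL1 and 53.3% for CCL5. In the lowest of 20 GC bins the median log2 ratio for DAC in siLuc was −0.95. CXCL8, CCL20, CXCL10 and CXCL11 were above the median of their own bin, by 2.23, 2.61, 0.37 and 0.95.

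After centring within GC bins, each of the 10 genes had a DAC ratio above 0 in both siRNA arms, with medians of 1.63 in siLuc and 2.55 in siStau1. Of all genes tested, 54.5% and 52.5% were above 0 in the same arms. The bin medians came from genes at or above 1 FPKM, and subtracting them lifts AT-rich genes that did not change. CXCL13, listed at 0 in all 4 groups, came to 0.742 for DAC in siLuc. The direction of low AT-rich members such as CXCL10 and CXCL11 therefore rests on the centring in siLuc. CXCL11, not tested there, went from 0.0085 to 0.95. CXCL10 changed its direction in siLuc from −0.37 to 0.37. NFKBIA and CCL5, whose transcripts are richer in GC, moved down to 0.92 and 1.53 in siLuc. For the knockdown under DAC, CXCL8 changed its direction from 0.41 to −0.20 while CCL5 was at −1.97. The centred values come with no test of their own.

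**Figure D3:**
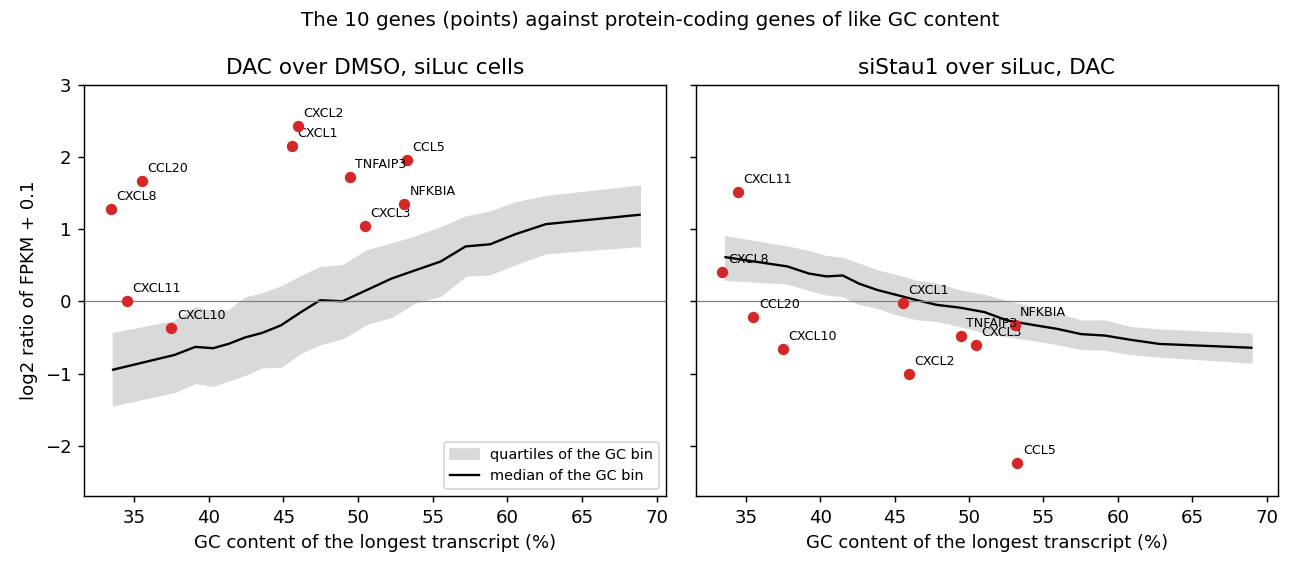
Log2 ratio of FPKM + 0.1 against GC content of the longest transcript, for DAC in siLuc cells (left) and siStau1 against siLuc under DAC (right), with red points for the 10 genes and the black line and grey band for the median and quartiles of protein-coding genes in 20 GC bins. Each of the 10 genes lies above the line on the left, and CCL5 lies farthest below it on the right, at a ratio of −2.23.

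The chromosome 4 chemokine cluster was read in genome order. From CXCL8 to CXCL2 it holds 9 chemokine genes, and the members among them, CXCL8, CXCL1, CXCL3 and CXCL2, were the only ones of the 9 that reached 1 FPKM in some group. CXCL6, 92.8 kb from CXCL8, was listed at 0 without DAC, and with DAC it had 0.0182 FPKM in siLuc and 0.0485 in siStau1. CXCL5, which like CXCL6 attracts neutrophils and lies 37.8 kb from CXCL3, was likewise listed at 0 without DAC and had 0.151 and 0.525 FPKM with it. PF4V1, PF4 and PPBP, which are platelet chemokines, were listed at 0 in all 4 groups. In the second cluster CXCL9, 13.6 kb from CXCL10 and like it a ligand of CXCR3, was listed at 0 in 3 groups and had 0.00798 FPKM in siStau1 DMSO. Genes that DAC raised in the authors' deposited table thus had neighbours in the same cluster that stayed under 1 FPKM in each group.

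The transcripts also differ in the number of ATTTA pentamers in the 3′ UTR, the core of AU-rich elements that many short-lived mRNAs carry. CXCL2 had 10 in 721 bases, CXCL8 9 in 1252, CXCL3 7 in 673 and CXCL1 5 in 706, taking the longest coding transcript of each. CCL20 and NFKBIA had 3 each, in 481 and 502 bases. These 6 genes were above the 90th percentile of ATTTA density among 12233 expressed protein-coding genes, whose median was 1.64 per kb. The close paralogs CXCL1, CXCL2 and CXCL3 count as 3 of these 6. TNFAIP3 had 5 in 1992 bases, at percentile 65.3, CXCL10 and CXCL11 had 1 each, and CCL5 had 0. CCL5, the gene of the 10 called for the knockdown, was thus the one without the pentamer, a description of a single gene.

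The rest of the pathway was described from 7 lists of related genes. Their counts stand beside the shares called over all genes tested. With DAC 8.71% were called higher and 4.78% lower in siLuc, and 4.56% and 2.89% in siStau1. The knockdown gave 0.799% called in DMSO and 0.904% under DAC. Of 20 NF-kB subunits and inhibitors other than the members, 19 were tested with DAC in siLuc, and 7 were called higher and 1 lower in the authors' deposited table. RELB, the partner of p52 in the non-canonical pathway, rose from 4.22 to 33.9 FPKM, with q = 0.00162 in the authors' deposited table. NFKB2, which encodes the precursor of p52, rose from 19.2 to 75.7 FPKM, and NFKBIE, another IkB protein, from 11.1 to 36.9 FPKM, both called in the authors' deposited table. ZC3H12A, which encodes an RNase that degrades inflammatory mRNAs, rose from 2.27 to 14.8 FPKM, also called there. The gene that fell was TAX1BP1, an adaptor of A20, from 38.5 to 15.8 FPKM. The list's median log2 ratio was 1.05, and 0.78 after GC centring. In siStau1 cells 3 of 19 tested were called, RELB, NFKB2 and TNIP1, each higher. In DMSO the knockdown gave 0 calls by Cuffdiff in the authors' deposited table, with 2 of 19 at an unadjusted p under 0.05. Under DAC it gave 1 call, TAX1BP1, which was higher at 38.2 against 15.8 FPKM. That count was 0 when adjusted within the comparison, 0 at a q-value limit of 0.01 and 5 at a limit of 0.1. At an unadjusted Cuffdiff p under 0.05 there were 9 of 19 under DAC, beside 6.95% of all genes tested. Of all genes tested, 41.9% had a ratio above 0 for the knockdown under DAC. In this list 6 of 19 tested were above 0 and 13 below. Its median log2 ratio was −0.51, and −0.29 in GC bins, beside −0.14 over all genes tested.

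Other NF-kB target genes, 40 symbols in 41 rows because SOD2 has 2, were read next. With DAC in siLuc 11 of 35 tested were called higher and 1, TNFAIP8, lower in the authors' deposited table. TNF, itself an activator of NF-kB, was listed at 0 in siLuc DMSO and had 2.54 FPKM with DAC. IL32 rose from 5.45 to 55.9 FPKM and LCN2, an iron-sequestering antibacterial protein, from 1.01 to 10.6 FPKM, both called in the authors' deposited table. In siStau1 cells 8 of 33 were called, each higher, among them IL32 from 2.82 to 30.1 FPKM and CFB, a complement factor, from 0.522 to 6.03 FPKM. The list's median log2 ratio with DAC was 1.21 in siLuc and 1.27 in siStau1, and it was −0.36 and −0.39 with knockdown in DMSO and DAC. In GC bins these medians were 0.95, 1.21, −0.28 and −0.14, and with a pseudocount of 1 they were 0.75, 0.49, −0.17 and −0.30. For the knockdown Cuffdiff called 0 genes of this list in either condition in the authors' deposited table, and 3 of 27 tested in DMSO and 8 of 35 under DAC had an unadjusted p under 0.05. Over all genes tested such a p was found for 4.30% in DMSO and 6.95% under DAC.

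Most chemokine ligands other than the members were too low to be tested. Of 37 such genes found, 5 were tested with DAC in siLuc, and 3 were called higher in the authors' deposited table. These were CCL3, at 1.00 FPKM with DAC, CCL4L2 at 0.999 and CCL25 at 0.575, each listed at 0 in siLuc DMSO. CCL25 was listed at 0 again in siStau1 DAC and was called lower there against siLuc DAC, a call lost when adjusted within the comparison, at a q-value limit of 0.01 and with an FPKM minimum of 1. The ligands with the highest levels were not called. CXCL16 had 13.6 FPKM in siLuc DMSO, 22.8 with DAC, 8.21 in siStau1 without DAC and 19.3 with it. CCL26, an eosinophil attractant, had 0.661 FPKM without and 10.7 with DAC in siLuc cells, and 0.486 and 7.24 FPKM in siStau1 cells, with q = 0.614 and 0.189 in the authors' deposited table. Of 23 receptors 2 were tested with DAC in either arm and 0 were called by Cuffdiff in any of the comparisons in the authors' deposited table, with 1 at an unadjusted p under 0.05 for DAC in siLuc. CXCR2, the receptor of the neutrophil-attracting members, was not tested and had between 0.00904 and 0.484 FPKM.

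Upstream of these genes, 7 of 29 tested sensors and kinases were called higher and 0 lower with DAC in siLuc. Of all genes tested there, 8.71% were called higher and 4.78% lower. The calls of the list included DHX58, from 3.78 to 21.2 FPKM, and TICAM1, the adaptor of TLR3, from 1.59 to 8.11 FPKM. In siStau1 cells 3 of 28 were called, each higher: DDX58, IFIH1 and IRAK1. Among all genes tested in that arm 4.56% were called higher. DDX58, which encodes the RNA sensor RIG-I, was the list's single call for the knockdown, falling from 41.5 FPKM in siLuc DMSO to 20.2 in siStau1 DMSO, a call lost when adjusted within the comparison and at a q-value limit of 0.01. Of 24 interferon signalling factors, 5 of 23 tested were called higher and 1 lower with DAC in siLuc, and 3 of 22 higher in siStau1. For the knockdown 2 were called lower in DMSO, and 4 lower and 1 higher under DAC, all in the authors' deposited table. The 5 calls under DAC became 2 at a q-value limit of 0.01 and 0 when adjusted within the comparison. USP18, an interferon-induced brake on the receptor, fell from 28.3 FPKM in siLuc DMSO to 6.78 in siStau1 DMSO. Of 12 factors that bind AU-rich elements, 11 were tested with DAC in siLuc and 1 was called higher, close to the share over all genes. ZFP36 was this single call of the list, from 3.21 to 10.7 FPKM, and it encodes tristetraprolin, which shortens the life of such mRNAs.

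**Figure D4:**
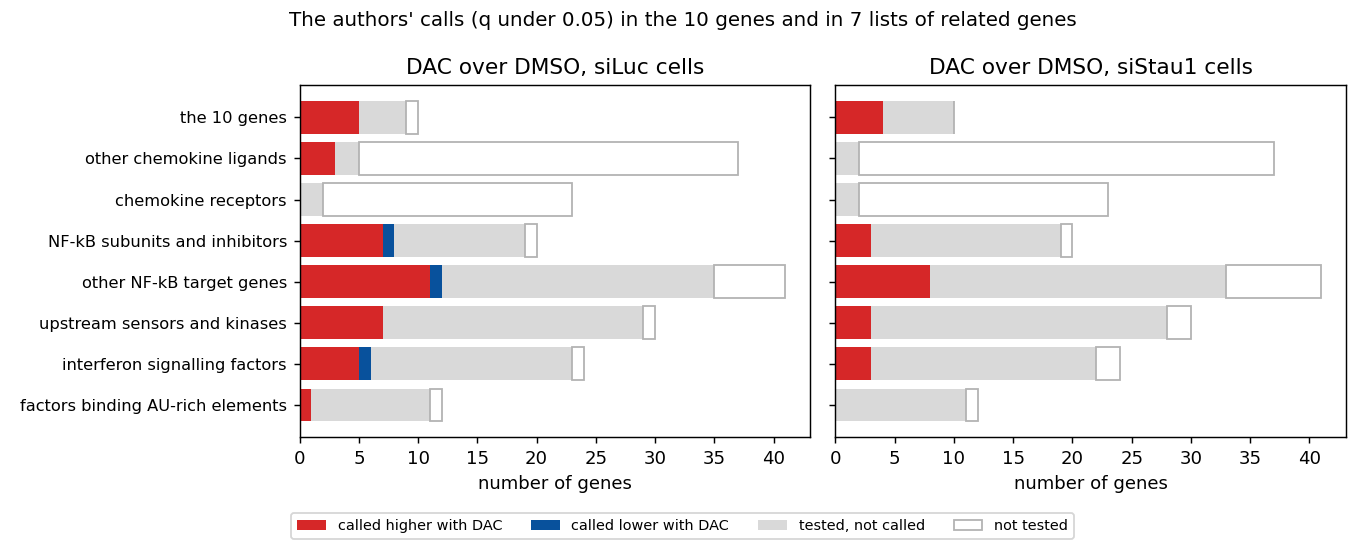
Number of genes called higher (red), called lower (blue), tested and not called (grey) and not tested (white) with DAC over DMSO in siLuc cells (left) and siStau1 cells (right), for the 10 genes and 7 lists of related genes, by the authors' q-value under 0.05. Red outnumbers blue in each list with a call, and 5 of the 10 genes on the left and 4 on the right are red. Over all genes tested, 8.71% were called higher and 4.78% lower on the left, and 4.56% and 2.89% on the right.

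Genes with the pattern most like each member were named by the distance between their 4 log2 values, each gene centred on its own mean, among 12600 other protein-coding genes with at least 1 FPKM in some group. The likeness rests on 4 group values, which many genes can match. NELL2 was closest to CXCL8, at a distance of 0.075, with 0.954 and 2.40 FPKM without and with DAC in siLuc and 0.256 and 3.20 FPKM in siStau1, and CYP2E1 was next at 0.19. STAP2 and THBS1 were closest to CXCL1, at 0.14 and 0.21. For NFKBIA they were ITGB5 and CALCOCO1, and for TNFAIP3 CYTH2 and TFPT, each within 0.059. Patterns like those of NFKBIA and TNFAIP3 were common, with 3312 and 2195 genes within a distance of 1. They were fewest for CXCL10, with 12 genes, of which MINOS1-NBL1 and IFI44L, an interferon-induced gene, were closest at 0.54 and 0.58. CCL5 had 22 such genes, with AL139353.1 and TAPBPL closest at 0.37 and 0.56, and CXCL11 had 27, with GRHL3 and CA9 closest at 0.31 and 0.60. CCL20 had 128, led by APOC1 and TRIML2. CXCL2 was closest to AP5Z1 and CNKSR1 and CXCL3 to ANO9 and TSC2, with 1667 and 6029 genes within 1. Among the 10 genes themselves NFKBIA and TNFAIP3 were the closest pair, at 0.32, followed by CXCL1 with CXCL8 at 0.61 and CXCL8 with CCL20 at 0.62.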

How the data were processed

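Total RNA of the 4 groups was analysed, and the 3 libraries of RNA bound by the J2 antibody were not used here because their tables list repeat elements without gene names. The authors deposited FPKM values, 1 per gene and group, in the layout of Cuffdiff, per the file headers, with a test score, a p-value and a q-value for each of 6 comparisons, of which 5 were used. Per the submitters' processing notes the build was hg38 and the tools included HISAT2 2.1.0 and Cuffdiff 2.2.1. The deposited fold changes, which the authors give on a log2 scale with infinite values, were not used. Recomputing the deposited q-values by the Benjamini-Hochberg method over all 102180 tests at once gave values within 5.27e-07. No deposited p-value is below 5e-05.

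From the FPKM values log2 ratios with a pseudocount of 0.1 were computed here in Python 3.11.15 with pandas 2.3.3. GC centring subtracted the median of protein-coding genes in 20 bins of the GC content of the longest GENCODE 29 transcript. All 58699 gene identifiers were in that release. The steps were tested on simulated data. Planned tests on values per library could not be run, so the authors' calls were used. The members and lists were chosen with earlier results of these data known. The text names the 10 members, STAU1, from each list at most 4 called genes per comparison by size of the log2 ratio, and for each member the 2 genes nearest in pattern. TAX1BP1 and TNFAIP8 with DAC in siLuc, the neighbours on chromosome 4, CXCR2, CCR4, CXCL16, CCL26 and the single markers were named in addition, after their values were seen. Alternatives were other q-value limits, adjustment within a comparison, pseudocounts of 1 and 0.01, an FPKM minimum of 1, centring and rescaling.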

Additional observations from a re-analysis of the deposited data

How the results depend on the processing

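Of 250 values of the members' log2 ratios under other pseudocounts, centring or scaling, 244 kept their direction. A pseudocount cannot turn the direction of a single ratio, so the values under other pseudocounts kept it by construction. Only centring and scaling could reverse a ratio. The 6 that reversed were all of ratios that were not called: CXCL1 for the knockdown under DAC (0.093 centred on the median gene and 0.12 rescaled), CXCL8 for the same comparison (−0.20 in GC bins), CXCL10 for DAC in siLuc (0.37 in GC bins) and CXCL11 for DAC in siLuc (−0.070 centred on the median gene and −0.00043 rescaled), and the cause was not tested. At a q-value limit of 0.01 the number of members called went from 5 to 3 with DAC in siLuc, and for siStau1 with DAC against control it went from 3 to 1. At a limit of 0.1 it went from 0 to 1 for the knockdown in DMSO, and with adjustment within the comparison from 1 to 0 for the knockdown under DAC. The median difference of the DAC ratio between the arms was 0.35 with a pseudocount of 1, 0.70 with 0.01, 0.68 centred on the median gene, 0.63 in GC bins and 0.69 rescaled. List medians reversed for the knockdown in DMSO in GC bins, to −0.10 for sensors and kinases and −0.20 for factors binding AU-rich elements. Counts of calls in the lists were within 1.5 times of those reported in 113 of 140 cases, and the other 27 lay outside. Many of the reported counts were 0, which a stricter q-value limit cannot change. Part of this likeness was therefore fixed in advance. No paired analysis was possible because the table gives values for groups only, and fits without single replicates were not run for the same reason. Members under 1 FPKM are limited by a depth that is unknown.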
